A study of Sus scrofa with 12 samples.

Results

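AP-1 is a family of transcription factors built from basic leucine zipper proteins, and its genes were followed here in the striatum of newborn piglets after deep hypothermic circulatory arrest (DHCA). Members were the rows of the authors' deposited table whose gene name is one of 10 AP-1 names. Of these names 7 were found, FOS, FOSB, FOSL1, FOSL2, ATF3, MAFF and BATF, among 21223 rows of that table and 25880 of the count table, and the 3 names JUN, JUNB and JUND were absent from it. Whole striatum, whose main nerve cells are spiny projection neurons, was sequenced from 6 DHCA piglets and 6 sham piglets. The DHCA piglets were anaesthetised with 4% isoflurane, cannulated through a median sternotomy, and brought on bypass to 18 °C within 20 to 30 min, after which the circulation was stopped for 30 min. Bypass then returned them to 37 °C, and 6 h of recovery followed. The sham piglets were kept under 4% isoflurane, and the labels give no surgery, bypass, cooling or recovery for them, so surgery, bypass, cooling, arrest and time under anaesthesia cannot be told apart. The labels give the stage of all 12 animals as neonatal and name no breed, sex or litter.

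AP-1 proteins bind DNA as pairs held together by the leucine zipper. FOS, FOSB, FOSL1 and FOSL2 do not pair with themselves and need a JUN protein, whereas JUN, JUNB and JUND can also pair with each other. FOS and FOSB are immediate early genes, whose RNA is made within minutes of calcium entry, growth factor or stress signals and decays quickly, while FOSL1 and FOSL2 usually follow later and last longer. ATF3 is a stress-induced partner of JUN proteins that often represses its targets. MAFF is a small MAF protein with no activation domain of its own, and BATF pairs with JUN proteins mainly in lymphocytes and dendritic cells. In the striatum FOS and FOSB are the classical markers of neurons recently driven by dopamine or glutamate.

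The JUN side of the family was only partly countable. The reference name table gives JUN to ENSSSCG00000031912 (Sscrofa11.1 chromosome 6, 153685682 to 153687639, plus strand), and the only row inside the RefSeq position of JUND is ENSSSCG00000031657 (chromosome 2, 59531154 to 59532196, plus strand), which neither the authors' table nor the name table names. Both are shown beside the members, the second as the JUND position row. JUNB (ENSSSCG00000013735, chromosome 2, 66214594 to 66215637, minus strand) had 0 counts in all 12 libraries. All 1044 of its exon bases also lie in an exon of PRDX2 on the plus strand, and 331 of them in an exon of HOOK2 as well. The counting command sets neither a strand option nor an option to count reads shared by overlapping genes, so a count of 0 there says nothing about JUNB RNA. Of the members, FOSL1 shares 609 of its 4790 exon bases with CCDC85B on the other strand, and the other 6 share none with another row.

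Library totals ranged from 5434652 to 9997400 counts in DHCA and from 1377809 (Sham 5) and 2515816 (Sham 1) to 12933536 in sham, and a level of 1 CPM, the TMM-scaled unit used here, stood for 1.502 counts in Sham 5 and 13.7 in Sham 6. Sham 4 went against its label. The summed level of 10 spiny projection neuron markers was 133 CPM there against 2294 to 6046 CPM in the other 11 libraries, and that of 6 cortical excitatory neuron markers was 1138 CPM against 5.99 to 27.3 CPM. Mitochondrial genes held 4.01% of counts in Sham 1 and 7.30% in Sham 5, against 10.6% to 26.3% in the others. Member results are therefore given with and without these libraries. In whole tissue, fewer cells of a type and less RNA per cell cannot be told apart.

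No AP-1 member passed the test between DHCA and sham, but FOS, FOSB, ATF3 and MAFF had fitted levels between 2.19 and 3.71 times those of sham. In edgeR's quasi-likelihood fit over 14004 genes, 26 genes passed at an adjusted p under 0.05, which is 0.186% of those tested, and 0 of the 6 members tested were among them. BATF had too few counts to be tested. All 6 fold changes were positive, where 49.5% of all genes tested had a positive one. Their median log2 fold change was 1.29 against -0.0030 over all genes tested. At an unadjusted p under 0.05, 4 of the 6 were higher in DHCA (FOSB, FOSL2, ATF3 and MAFF), against 3.43% of all genes in that direction and 7.9% in either. The members were chosen with earlier results of these data known and were measured in the same libraries. These comparisons with all genes are therefore a description only. DESeq2's Wald test called 1 member, FOSL2, where it called 1.1% of genes. With limma-voom 0 members passed (0.193% of genes), and with sample quality weights FOS and MAFF did (1.48% of genes). In none of the 6 did the 6 DHCA libraries lie wholly apart from the 6 sham libraries, a separation found in 0.993% of genes tested.

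**Figure D1:**
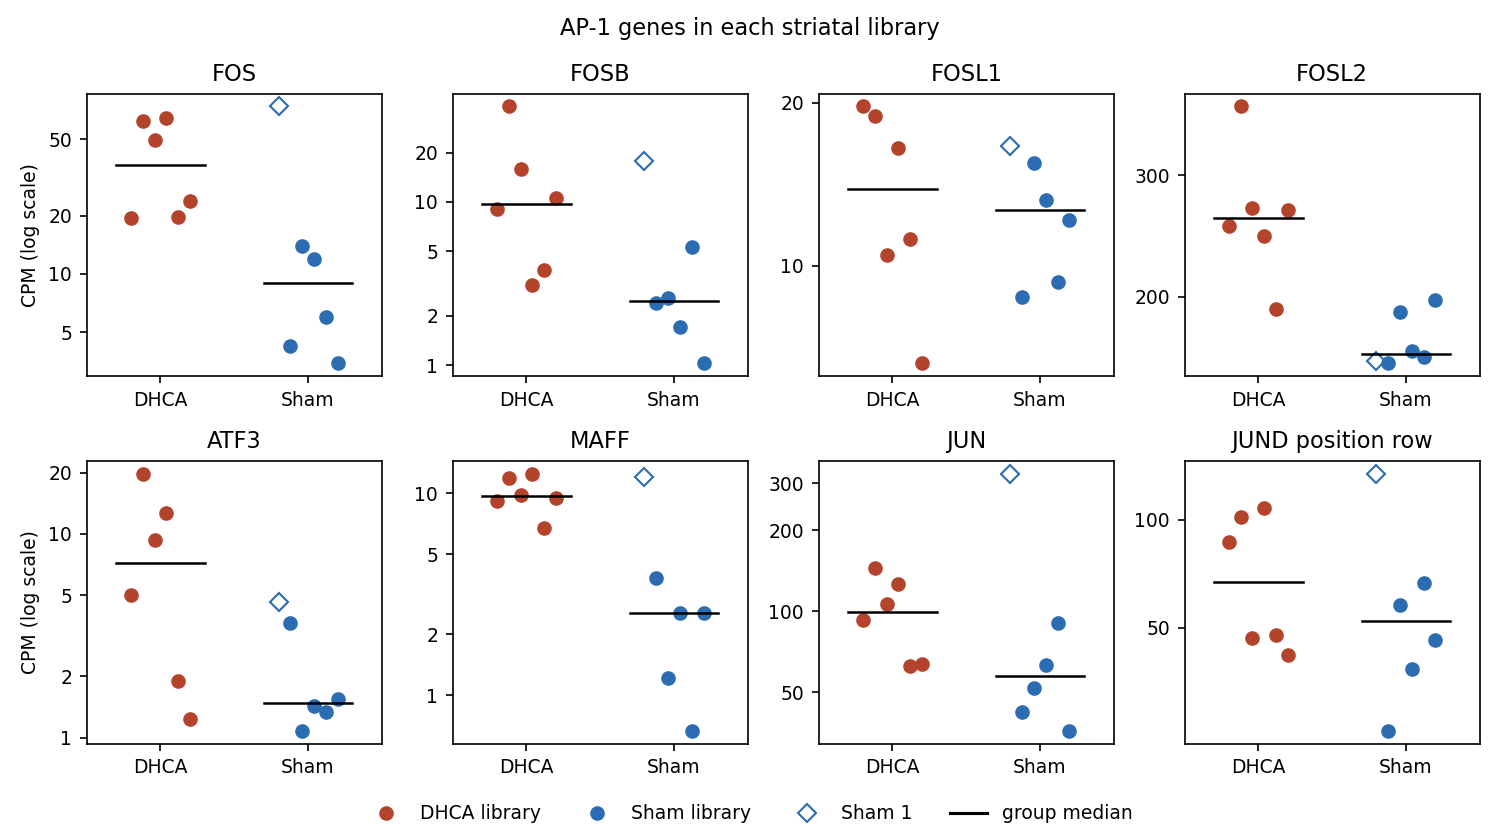
Level of each tested member, of JUN and of the JUND position row in CPM (log scale), with 1 point per library, DHCA on the left and sham on the right, and a bar at the group median. The open diamond is Sham 1, which lies at 74.1 CPM for FOS and 325 CPM for JUN, above all other libraries.

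FOS (ENSSSCG00000002383, chromosome 7, 98449508 to 98453576, plus strand) encodes the founding partner of JUN. It was at 19.4, 36.6 and 64.6 CPM as lowest, median and highest of the DHCA libraries, against 3.44, 8.97 and 74.1 CPM in sham. The highest sham value was that of Sham 1, and the other 5 sham libraries, at 3.44 to 14.02 CPM, lay below every DHCA library. The log2 fold change was 1.13 (SE 0.68, 95% interval -0.32 to 2.59, edgeR adjusted p = 0.761). Within DHCA, libraries 2, 3 and 4 were at 49.3 to 64.6 CPM and libraries 1, 5 and 6 at 19.4 to 23.9 CPM.

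FOSB (ENSSSCG00000031616, chromosome 6, 51838277 to 51842399, plus strand), whose product builds up in striatal neurons under repeated stimulation, was at 3.09, 9.76 and 38.6 CPM in DHCA, against 1.02, 2.49 and 17.8 CPM in sham. The highest DHCA value was that of DHCA 2 and the highest sham value that of Sham 1. All 6 DHCA libraries lay above the sham median, and 1 of them above the highest sham library. This gave a log2 fold change of 1.61 (SE 0.75, 95% interval 0.0040 to 3.22, edgeR adjusted p = 0.631), and without DHCA 2 it was 0.91. FOS and FOSB did not follow each other through the DHCA animals. DHCA 4 had the highest FOS (64.6 CPM) and the lowest FOSB (3.09 CPM), while DHCA 2 and DHCA 3 were high in both.

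FOSL2 (ENSSSCG00000032527, chromosome 3, 110819947 to 110842850, minus strand) encodes FRA2, a longer-lived FOS relative. It was at 192, 260 and 377 CPM in DHCA, against 160.3, 165 and 198 CPM in sham. Of the DHCA libraries 5 lay above every sham library, and DHCA 5 (192 CPM) lay below Sham 6 (198 CPM). The log2 fold change was 0.62 (SE 0.16, 95% interval 0.27 to 0.97, edgeR adjusted p = 0.202), the smallest standard error of the members. Sham 1 was at 162 CPM, the fifth of the sham libraries, so its FOSL2 stood with that of the other sham animals.

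FOSL1 (ENSSSCG00000012967, chromosome 2, 6430153 to 6439029, plus strand), which encodes FRA1, was at 6.59, 13.9 and 19.7 CPM in DHCA, against 8.74, 12.7 and 16.7 CPM in sham. The DHCA libraries reached both above and below the whole sham range. For FOSL1 the log2 fold change was 0.15 (SE 0.27, 95% interval -0.43 to 0.72, edgeR adjusted p = 0.898), so a fold change above 1.65 lay outside the interval. Its reads over the 609 bases shared with CCDC85B would not be assigned under the counting used. The row also runs past the RefSeq end of FOSL1 (6439029 against 6436173). Whether reads counted beyond that end come from FOSL1 was not tested.

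ATF3 (ENSSSCG00000015595, chromosome 9, 130772262 to 130785599, minus strand), a gene induced by cell stress and nerve injury, was at 1.24, 7.19 and 19.7 CPM in DHCA, against 1.08, 1.48 and 4.65 CPM in sham. DHCA 1, 2, 3 and 4 lay above every sham library at 5.00 to 19.7 CPM, and DHCA 5 and DHCA 6, at 1.90 and 1.24 CPM, lay within the sham range. The log2 fold change was 1.89 (SE 0.62, 95% interval 0.56 to 3.22, edgeR adjusted p = 0.375). Sham 5 held 2 ATF3 counts, so its level there carried a large counting error.

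MAFF (ENSSSCG00000030165, chromosome 5, 9683657 to 9695934, minus strand), the small MAF gene, was at 6.72, 9.66 and 12.5 CPM in DHCA, against 0.666, 2.56 and 12.02 CPM in sham. As for FOS, Sham 1 held the highest sham value and the other 5 sham libraries, at 0.666 to 3.83 CPM, lay below every DHCA library. MAFF had a log2 fold change of 1.45 (SE 0.46, 95% interval 0.46 to 2.44, edgeR adjusted p = 0.354). The lowest sham value rested on 1 count in Sham 5.

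BATF (ENSSSCG00000030582, chromosome 7, 98670211 to 98692230, plus strand) had 23 counts over all 12 libraries, 0 to 5 in each, and was not tested. Its level was at most 0.490 CPM in DHCA and 0.388 CPM in sham. The 6 markers of T and B lymphocytes, the cells in which BATF is best known, summed to 1.86 to 3.53 CPM in DHCA and 0.426 to 10.9 CPM in sham, with none at 0 in all libraries.

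Of the JUN partners, JUN was at 62.6, 99.6 and 145 CPM in DHCA, against 35.9, 57.5 and 325 CPM in sham. Sham 1 was the highest of all 12 libraries, and every DHCA library lay above the sham median. The log2 fold change was -0.014 (SE 0.49, 95% interval -1.06 to 1.04, edgeR adjusted p = 0.997), and without Sham 1 it was 0.83 (SE 0.28, adjusted p = 0.368). The JUND position row was at 42.0, 67.2 and 108 CPM in DHCA, against 25.8, 52.1 and 134 CPM in sham, the last again in Sham 1. The groups overlapped, and its log2 fold change was 0.25 (SE 0.37, edgeR adjusted p = 0.874). With 1 library left out it ran from 0.080 (without Sham 2) to 0.63 (without Sham 1).

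Sham 1 was the highest sham library in 5 of the 6 tested members, all but FOSL2, and in JUN and the JUND position row. Relative to the median of the other sham libraries it held 12.4 times as much FOS, 7.39 times as much FOSB, 6.26 times as much JUN, 4.70 times as much MAFF and 3.27 times as much ATF3, but 1.37 times as much FOSL1 and 0.970 times as much FOSL2. The same library had the highest sum of endothelial markers (6 of 7 matched, none at 0 throughout), 381.5 CPM, against 187 to 239 CPM in DHCA and 162 to 324 CPM across the other 5 sham animals. Sham 1 was the highest of the 12 libraries in 5 further marker sums. Spiny projection neuron markers summed to 6046 CPM there (133 to 4600 CPM elsewhere), thalamic neuron markers to 68.6 CPM (15.98 to 44.2), microglial markers to 311 CPM (139.5 to 284), oligodendrocyte precursor markers to 921 CPM (354 to 859) and lymphocyte markers to 10.9 CPM (0.426 to 4.54). The part of these differences, of its 4.01% mitochondrial share and of its low depth in the AP-1 values was not tested. Among DHCA libraries, DHCA 2 was the highest in 3 members (FOSB, FOSL2 and ATF3), DHCA 4 in 2 (FOS and MAFF) and DHCA 1 in FOSL1. DHCA 5 was the lowest in 2 (FOSL2 and MAFF) and DHCA 6 in 2 (FOSL1 and ATF3). The DHCA libraries also differed in make-up. Oligodendrocyte markers summed to 4467 CPM in DHCA 5 and 64145 CPM in DHCA 3, the lowest and highest of that group, against 9315 to 32745 CPM in sham. The part of this spread in the order of the DHCA libraries was not tested.

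**Figure D2:**
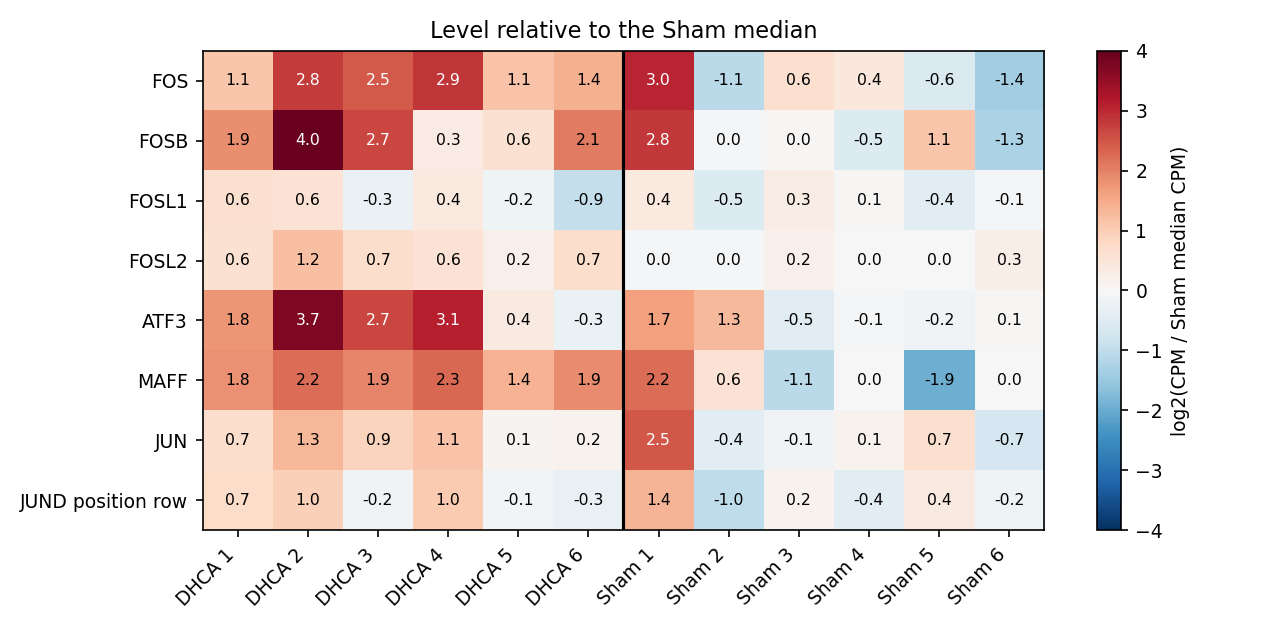
Level of each gene in each library as log2 of its CPM over the sham median, DHCA left and sham right of the line. Sham 1 reads 3.0 for FOS, 2.8 for FOSB and 2.5 for JUN but 0.0 for FOSL2, and in DHCA 2 FOSB reads 4.0 and ATF3 3.7.

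Without Sham 1, MAFF passed, higher in DHCA, and the other members stayed short of the threshold. Sham 1 held the highest sham level of MAFF, FOS, FOSB and ATF3, so leaving it out lowers their sham levels. The log2 fold change of MAFF was then 2.03 (SE 0.31, 95% interval 1.36 to 2.70, edgeR adjusted p = 0.0217), where 36 genes, 0.255% of those tested, passed. That of FOS was 2.33 (SE 0.47, adjusted p = 0.0627), against 1.13 with all libraries, and that of FOSB 2.61 (SE 0.67, adjusted p = 0.161). FOS and MAFF were then also the members whose DHCA libraries lay wholly above the 5 sham libraries, a separation found in that direction in 1.09% of genes tested and in either in 1.7%. The 3 red cell markers split the libraries the same way, with sums of 26.1 to 65.1 CPM in DHCA, against 85.8 to 239 CPM in these 5 sham libraries and 33.0 CPM in Sham 1, and their part in the result was not tested. FOSL2 was at 0.60 (SE 0.16, adjusted p = 0.192), and ATF3 was at 2.10 (SE 0.65, adjusted p = 0.294).

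Leaving out Sham 4, the library with cortical markers, called 0 members, where 10 genes (0.0708%) passed. FOS was then at 1.03, FOSB at 1.42, ATF3 at 1.77, MAFF at 1.35, FOSL2 at 0.60 and FOSL1 at 0.15, with edgeR adjusted p from 0.329 (FOSL2) to 0.885 (FOSL1). Without Sham 5 alone 0 members were called, where 11 genes passed, with MAFF at 1.32 (edgeR adjusted p = 0.571) and FOS at 0.98. With Sham 1 and Sham 5 left out together MAFF was at 1.94 (adjusted p = 0.0467), where 0.0845% of genes passed. With Sham 1, Sham 4 and Sham 5 left out it was at 1.92 (adjusted p = 0.123) and FOS at 2.51 (adjusted p = 0.310). No member passed, and of all genes 1 did (0.00696%).

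**Figure D3:**
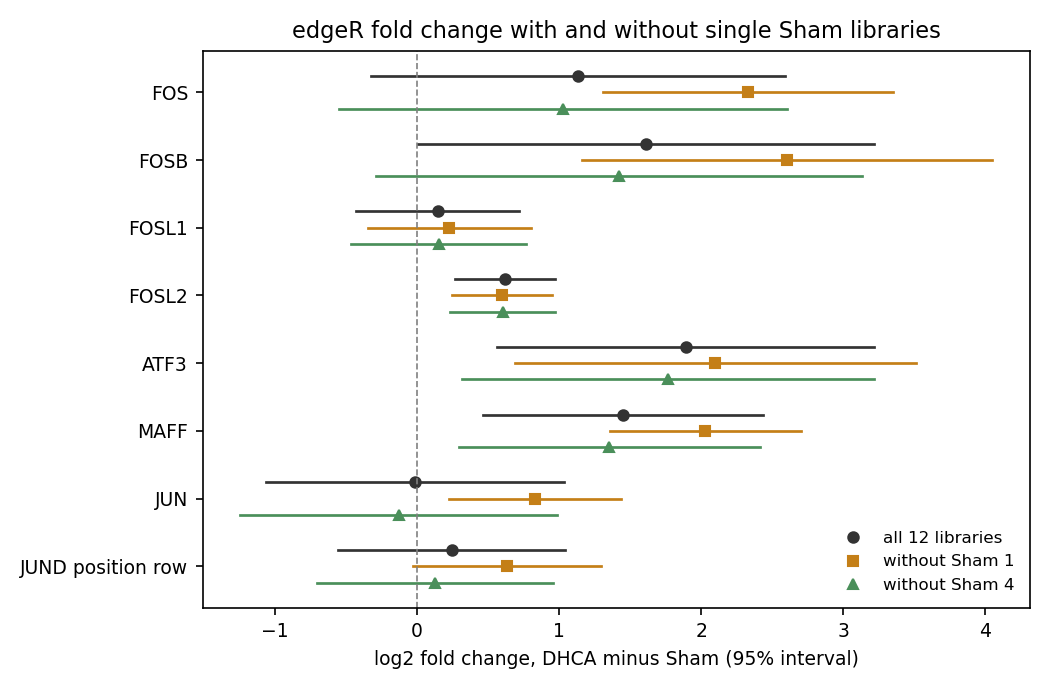
Log2 fold change of DHCA minus sham with its 95% interval from edgeR for each gene, with all 12 libraries (circles), without Sham 1 (squares) and without Sham 4 (triangles). FOS moves from 1.13 to 2.33 and JUN from -0.014 to 0.83 when Sham 1 is left out, while FOSL2 stays at 0.60 to 0.62.

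Per kilobase of exon, FOSL2 was the most abundant FOS family RNA in both groups. It averaged 44.7 ± 10.2 CPM per kilobase in DHCA and 29.0 ± 2.72 in sham (SD, n = 6 each). FOS averaged 14.5 ± 7.79 in DHCA and 6.90 ± 9.95 in sham, FOSB 13.8 ± 13.5 in DHCA and 5.26 ± 6.53 in sham, and FOSL1 2.90 ± 1.097 in DHCA and 2.63 ± 0.669 in sham. The sham means of FOS and FOSB were carried by Sham 1. Without it they were 2.88 ± 1.73 for FOS and 2.66 ± 1.68 for FOSB (SD, n = 5), beside 2.46 ± 0.585 for FOSL1, and these 3 did not differ beyond their spread. In DHCA, FOS and FOSB did not differ beyond theirs. MAFF averaged 4.94 ± 1.04 in DHCA and 1.89 ± 2.08 in sham (1.08 ± 0.620 without Sham 1), and ATF3 averaged 3.77 ± 3.22 in DHCA and 1.04 ± 0.679 in sham. JUN averaged 56.2 ± 18.8 in DHCA and 57.2 ± 62.7 in sham, but 32.0 ± 12.1 in sham without Sham 1, which was at 183 CPM per kilobase. The JUND position row averaged 69.3 ± 28.8 in DHCA and 59.1 ± 36.8 in sham (45.1 ± 15.4 without Sham 1). The rows of FOSB (978 bases) and the JUND position (1041 bases) are shorter than their RefSeq spans allow and may lack untranslated exons, so their order against the others is uncertain. Those of FOS, FOSL1, FOSL2 and JUN reach beyond their RefSeq positions. The FOSL1 row ends at 6439029, against 6436173 in RefSeq, and the FOS row at 98453576, against 98451971. Their levels per kilobase may be understated, which adds to the uncertainty of the order.

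FOSL2 made up 48.8%, 62.6% and 70.5% of the summed level per kilobase as lowest, median and highest of DHCA libraries, against 35.7%, 75.2% and 87.3% in sham. Sham 1 was the lowest of all libraries, and the other 5 sham libraries, at 74.1% to 87.3%, lay above every DHCA library. FOS made up 11.2% to 33.1% in DHCA and 3.30% to 11.9% in the 5 sham libraries other than Sham 1, where it was 35.6%. These shares restate the levels above, carry the same uncertainty of row length, and were not tested.

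**Figure D4:**
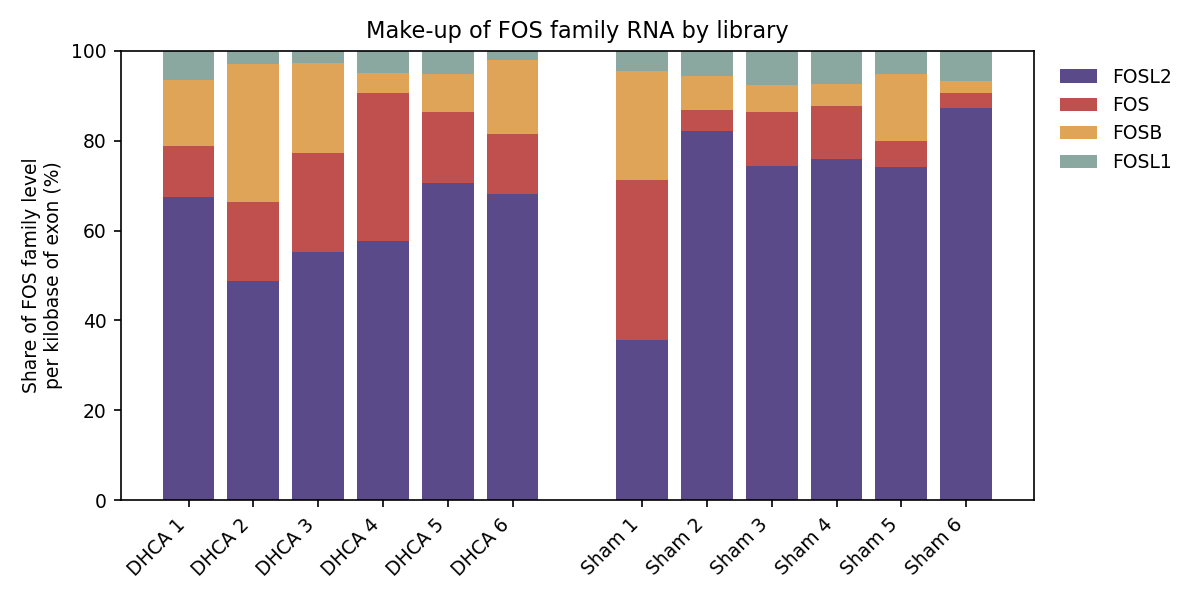
Share of the summed FOS family level per kilobase of exon, in percent, held by FOSL2, FOS, FOSB and FOSL1 in each library, DHCA on the left. FOSL2 holds 48.8% to 70.5% in DHCA libraries, 35.7% in Sham 1 and 74.1% to 87.3% in the other sham libraries.

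In the authors' deposited table, FOSL2 and MAFF passed at an adjusted p under 0.05, as did 1.29% of genes with an adjusted p there. The authors' deposited table gives FOSL2 a log2 fold change of 0.61 (standard error 0.14, adjusted p = 0.00297) and MAFF one of 1.65 (standard error 0.45, adjusted p = 0.0262). For FOS the authors' deposited table gives 1.87 (adjusted p = 0.282), for ATF3 1.79 (0.192), for FOSB 1.68 (0.498) and for FOSL1 0.12 (0.898). BATF has no adjusted p there. JUN and the JUND position row are unnamed there but have values by gene identifier. These are 0.40 for JUN (adjusted p = 0.788), where the edgeR fit with all 12 libraries gave -0.014, and 0.33 for the JUND position row (0.767). Values are also given in the authors' deposited table for 86 genes that had no read in any of the 12 libraries. The count table holds 18 library columns, and which of them that fit drew on is not given. Its values may therefore rest on a different set of samples from the 12 used here.

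Among AP-1 target genes, 14 were tested. TIMP1, a metalloproteinase inhibitor gene, was at 7.05 to 21.3 CPM in DHCA, wholly above the 1.33 to 6.11 CPM of sham, with a fitted log2 difference of 1.43 (SE 0.34, edgeR adjusted p = 0.140). The cyclin D1 gene CCND1 had -0.81 (SE 0.21, edgeR adjusted p = 0.206). Of the 14 targets 12 had positive fold changes, where 49.5% of all genes tested had one. Their median was 0.32, against -0.0030 over all genes tested. The target list was also chosen with earlier results known, so these comparisons are a description only.

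Of 23 upstream kinases and promoter factors 0 passed, where 0.186% of all genes did, 1 had an unadjusted p under 0.05, where 7.9% of all genes had one, and the median log2 fold change was 0.094. The smallest p there were those of MAP3K5, the stress kinase ASK1 (0.43, SE 0.19, adjusted p = 0.605), and the CREB coactivator gene CRTC1 (-0.51, SE 0.26, adjusted p = 0.701). Of 14 related zipper factors 0 passed, with a median of 0.052. BATF2, an interferon-inducible relative of BATF, was at 1.44 to 14.4 CPM in DHCA and 0.569 to 2.71 CPM in sham with a fitted log2 difference of 2.43 (SE 0.53, edgeR adjusted p = 0.111). MAF, a large MAF factor, had -0.75 (SE 0.25, edgeR adjusted p = 0.407).

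Of 7 genes for AP-1 RNA decay and protein turnover 0 passed, where 0.186% of all genes did, with a median of 0.16. ZFP36L2 and ZFP36 encode proteins that bind AU-rich elements and promote the decay of short-lived RNAs, FOS among the known targets of ZFP36. ZFP36L2 was at 58.7 to 111 CPM in DHCA, wholly above the 35.7 to 50.3 CPM of sham (log2 fold change 0.82, SE 0.18, edgeR adjusted p = 0.116). ZFP36 was at 25.1 to 112 CPM in DHCA, against 11.3 to 16.8 CPM in 5 sham libraries and 49.2 CPM in Sham 1, with a fitted log2 difference of 1.41 (SE 0.44, edgeR adjusted p = 0.334).

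Of 11 other activity-induced early genes 0 passed, where 0.186% of all genes did, with a median of 0.13. At an unadjusted p under 0.05 NPAS4 was higher and ARC lower, where 7.9% of all genes had such a p in either direction. NPAS4, a neuron-specific early gene, was at 136.1 CPM in DHCA 2 and 79.0 CPM in DHCA 3, the DHCA libraries with the highest FOSB. It was at 0.560 to 5.77 CPM in the 4 remaining DHCA animals. In sham it was at 0.569 to 3.10 CPM, the highest in Sham 1, whose FOSB (17.8 CPM) was above that of DHCA 3 (15.98 CPM). NPAS4 had a fitted log2 difference of 4.87 (SE 1.34, edgeR adjusted p = 0.235). That value was 2.17 with limma-voom, 1.1999 with quality weights, 3.26 with the replicate block and 3.75 without DHCA 2, and DESeq2 called NPAS4 (4.73, adjusted p = 0.00964). ARC, whose product acts at synapses, had a negative fold change (-1.22, SE 0.37, edgeR adjusted p = 0.327).

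The genes most like FOS, FOSL2 and ATF3 across the 12 libraries were ranked by the root mean square difference of their centred log2 CPM. Nearest to FOS were ZFP36 (difference 0.76), BTG2 (0.78) and CDKN1A (0.83), where the median gene differed by 1.51. Sham 1 was the highest sham library in all 3, which choosing them by likeness to FOS favours. BTG2, an antiproliferative immediate early gene, stood at 21.3 CPM in Sham 1, against 9.85 to 22.3 CPM in DHCA. Nearest to FOSL2 were DNAJB1, a heat shock co-chaperone gene (0.16), DDX28 (0.20) and STAT3 (0.20), where the median gene differed by 0.57. Nearest to ATF3 were EMILIN2 (0.50), CD274 (0.50) and BATF2 (0.56), against a median of 1.36. These values share libraries and depth and are a description only.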

How the data were processed

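Per the file headers, the authors counted reads per gene with featureCounts 1.5.1, using exons of a Sscrofa11.1 annotation and no strand option, and deposited the unnormalized counts. The exon lengths of that table gave the levels per kilobase. DESeq2 is named in the submitters' processing notes, and no source used here names the aligner. Of 18 library columns, 12 matched the samples by title and number, and the other 6 were not used. The authors' deposited table of their own comparison holds, for each gene, a mean normalized signal, the log2 fold change and its error, a statistic (score), a p-value and an adjusted p-value. Its fold changes were read as DHCA minus sham, since they correlated at 0.967 with those computed here across 14004 genes, which are not independent replicates. The statistic has the opposite sign in all 21223 rows.

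Counts were analysed in R 4.3.3 with edgeR 4.0.16 (filterByExpr by group, TMM, robust glmQLFit, glmQLFTest, group as the only term), with Benjamini-Hochberg adjustment over all 14004 genes tested and a threshold of 0.05. Standard errors come from the F statistic, and CPM is scaled by TMM. Each group comes from 6 piglets by the series' design, and p-values measure the spread between animals. Names came from the authors' table, else from a reference table, and pathway genes were matched by current symbol. The rule for named genes took every member, list genes that passed, the 2 others of each list with the smallest p, and the 3 genes most like FOS, FOSL2 and ATF3 (log2 CPM, prior count 2). It also provided for JUNB, which was not tested. One item of the target list is not reported here. The members and lists were chosen with earlier results of these data known. Alternatives were other scalings (DESeq2 size factors, upper quartile), DESeq2 1.42.0, limma 3.58.1 (voom, with and without sample quality weights), filters, a replicate block, libraries left out, mitochondrial and red cell genes removed, and 0.10 as threshold. The steps were tested on simulated data. No sequences or genome were used.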

Additional observations from a re-analysis of the deposited data

Results flagged for a closer look

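Among the genes named by rule, 20 were examined in each group of 6 for a library set apart from the rest, and 7 of the 40 groups had one. Chance gives about 1 in 20 for unrelated groups of normally distributed values. The CPM were compared without a log scale, so that rate may not hold here. In 6 of the 7 the library was Sham 1. The genes were measured in the same libraries, so these 6 are not separate events and the chance rate does not apply to their number. FOS was at 74.1 CPM in Sham 1, with 14.02 CPM in the next sham library. FOSB was at 17.8 CPM there, with 5.33 CPM in the next, and MAFF at 12.02 CPM, with 3.83 CPM in the next. JUN was at 325 CPM in Sham 1, with 90.5 CPM in the next. Outside the family, ZFP36 was at 49.2 CPM in Sham 1, with 16.8 CPM in the next sham library, and BATF2 at 2.71 CPM, which rested on 7 counts, with 1.33 CPM in the next. The remaining group was FOSB in DHCA, where DHCA 2 was at 38.6 CPM and the next library, DHCA 3, at 15.98 CPM.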

How the results depend on the processing

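The alternatives draw on the same 12 libraries, and the threshold of 0.10 keeps the fold changes of the main fit, so their signs are not independent. All 6 tested members had a positive fold change in all 24 alternatives, and 5 of the 144 values passed. These were FOSL2 with DESeq2 (adjusted p = 0.0118), FOS and MAFF with voom and quality weights (0.0292 and 0.00176), and MAFF without Sham 1 (0.0217) and without Sham 1 and Sham 5 (0.0467). The count of members called was thus 1 with DESeq2, 2 with quality weights, 0 to 1 with 1 library left out, and 1 without Sham 1 and Sham 5. All genes called, 26 here, numbered 179 with DESeq2, 207 with quality weights, 8 with the replicate block, 9 to 51 with 1 library left out, 12 without Sham 1 and Sham 5, 1 without Sham 1, Sham 4 and Sham 5, and 55 at a threshold of 0.10. Called genes of the related lists, 1 here, numbered 6 with DESeq2, 4 with quality weights, 0 with the replicate block, 0 to 1 with 1 library left out, and 0 with either set of sham libraries left out. JUN changed sign to 0.44 with voom, 1.02 with quality weights, 0.058 with no filter, 0.43 with the block, 1.05 without Sham 1 and Sham 5 and 1.199 without Sham 1, Sham 4 and Sham 5, and ranged from -0.19 to 0.83 with 1 library left out. The titles number both groups 1 to 6, and the correlation of deviations between same-numbered libraries ran from -0.39 to 0.34. Such correlations cannot decide whether same-numbered animals were handled together, and this was not tested. The replicate block called 0 members, with FOS at 1.95, against 1.13 without it. Depth limits BATF and the low values of Sham 5.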

Other observations

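Genes like JUNB, whose every exon base is shared, were at 0 throughout the count table. Of 383 rows whose exon bases all lie in exons of other rows, 383 had 0 counts in all 12 libraries, against 3254 of 20466 rows (15.9%) that share no exon base. Without an option to count shared reads, no read can be assigned to a wholly shared row. The 0 counts of these rows thus follow from the counting and say nothing about their RNA. HMOX1, a haem oxygenase gene in the AP-1 target list, also had 0 counts in all 12 libraries, with 0% of its exon bases shared. CCL2, a chemokine gene in the same list that did not pass the filter on low counts and was named after its values were seen, was at 1.007 to 21.1 CPM in DHCA (5 to 157 counts), against 0 to 0.666 CPM in 5 sham libraries (0 or 1 count each) and 2.91 CPM in Sham 2, which lay above DHCA 1, 5 and 6.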
